A study of Homo sapiens with 9 samples.

Results

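A subset of the epiblast-like cells in human extra-embryoids carried many transcripts of TAGLN, which encodes transgelin, an actin-binding protein best known from smooth muscle. These TAGLN-high epiblast-like cells numbered 580 of 22426 cell barcodes in both libraries together, 465 at day 4 (D4) and 115 at day 6 (D6). They were chosen by measured transcript counts. A cell needed between 3430 and 27500 unique molecular identifiers (UMIs, each standing for 1 captured transcript), at most 10% mitochondrial UMIs, at least 5 UMIs of POU5F1, at least 1 of SOX2, at most 2 of FN1 and at least 8 of TAGLN. POU5F1 and SOX2 are core pluripotency factors, and FN1 (fibronectin) is abundant in the hypoblast-like cells of the same structures. The comparison cells passed the same POU5F1, SOX2 and FN1 gate on the same day but had at most 4 UMIs of TAGLN and none of TFAP2A, an early amnion factor. There were 2696 of them at D4 and 4211 at D6.

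Human extra-embryoids (hEEs) are aggregates of pluripotent stem cells that sort themselves into an inner epiblast-like and an outer hypoblast-like compartment. Both libraries came from ESI017, an established human embryonic stem cell line, wild type and with no signalling treatment named for them. The line had been kept in an expanded potential medium on mouse feeder cells before aggregation. That medium held a WNT inhibitor (IWR-1) and an inhibitor of the kinase ROCK (Y27632). The ROCK inhibitor was also added for the first day of aggregation. The part of these inhibitors in the results was not tested. The matrices hold human genes alone, and the part of reads from feeder cells in the results was not tested. Aggregates were grown in spontaneous differentiation medium and later in a modified embryo culture medium, and were dissociated at D4 or D6. Wells from 2 independent experiments were pooled before dissociation, and each day is 1 droplet library. The 2 libraries held 10943 and 11483 barcodes with medians of 12524 and 12599 UMIs, of which 9151 and 10097 met the limits on UMIs and mitochondrial share. Day and library therefore cannot be told apart, cells of a library are not replicates, and no p-value is given. Intervals are 95% exact intervals that cover counting error only. The 2 barcode lists shared 40 sequences, carried by 2 of the TAGLN-high cells at D4 and 1 at D6.

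In the embryo, the epiblast is an epithelium whose cells hold pluripotency factors while signals from the neighbouring hypoblast and amnion pattern it. Actin filaments, bundled by proteins such as calponins, tropomyosins and transgelin, connect through vinculin and talin to integrins, which grip the matrix. Many genes of this apparatus are read by serum response factor (SRF) together with cofactors released when actin monomers are used up, and the YAP and TEAD factors respond to the same tension. NODAL, a ligand of the TGF-beta family, signals through SMAD2 and induces its own secreted antagonists LEFTY1 and LEFTY2.

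The TAGLN-high cells made up 12.5% of the epiblast-like gate at D4 (465 of 3716, interval 11.5 to 13.6%) and 2.28% at D6 (115 of 5054, interval 1.88 to 2.73%). With TAGLN counted as a rate per UMI of the cell, in place of raw UMIs, the shares were 8.29% and 1.78%. A raw count favours deep cells, and the TAGLN-high cells had medians of 17911 and 17129 UMIs against 14476 and 14226 in comparison cells. The part of this depth difference in the results was not tested beyond the alternatives with matched or thinned depth given with the limits. TAGLN itself had a median of 13 UMIs per TAGLN-high cell at D4 (range 8 to 80) and 16 at D6 (range 8 to 128), and 1 and 0 in comparison cells. These counts follow from the choice of cells and are a description. Cells just inside the limit, with 8 TAGLN UMIs, had 29.6 CPM (counts per 1e+06 UMIs) of ANXA1 at D4 and cells just outside, with 7, also had 29.6. LEFTY1 stood at 172 just inside and 242 just outside at D4. At D6, with 8 cells on each side, ANXA1 stood at 15.6 inside and 0 outside, and LEFTY1 at 102 and 68.3. The TAGLN-high cells included 16 cells with a UMI of TFAP2A at D4 and 8 at D6. A further 108 and 33 cells met the POU5F1, SOX2 and TAGLN limits but had more than 2 UMIs of FN1 and stayed out.

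The cells were proposed with TAGLN, VCL, ANXA1 and IGFBP2 as markers, of which TAGLN was fixed by the choice, VCL and ANXA1 were higher on both days and IGFBP2 differed little at D4. VCL (vinculin) stood at 370.3 CPM in TAGLN-high cells and 193 in comparison cells at D4, and at 488 and 178 at D6, log2 ratios of 0.94 (0.88 to 1.00) and 1.45 (1.36 to 1.55). ANXA1, a calcium-dependent membrane-binding annexin, stood at 93.4 against 2.46 CPM at D4 and 47.3 against 0.546 at D6. IGFBP2, a secreted binder of insulin-like growth factors, stood at D4 at 1233 against 1160.0 CPM, a log2 ratio of 0.09 (0.06 to 0.12). At D6 it stood at 2254 against 1399 CPM, a log2 ratio of 0.69 (0.64 to 0.73). Of 25 epiblast and primed pluripotency genes, 17 of 23 measured lay below 0 at D4, 12 of them with the whole interval below it, and 13 of 23 at D6, 7 with the whole interval, while 0 and 1 were 2-fold lower and the medians were -0.11 and -0.07. SFRP2 was the gene 2-fold lower at D6, and L1TD1, an RNA-binding protein, stood at 609 against 1101 CPM there. NANOG, UTF1, SALL4, DNMT3B and ZFP42 all lay between -0.15 and 0.31 on the log2 scale on both days, and POU5F1, which the choice had required only at 5 UMIs, stood at 1210.2 against 1169.9 CPM at D4 and 1177 against 1356 at D6.

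Across all genes with at least 10 CPM in the higher of both groups, and without the 5 genes of the rule, 113 of 8557 were at least 2-fold higher in TAGLN-high cells at D4 (1.32% of genes compared) and 9 were at least 2-fold lower (0.105%). At D6, 253 of 9024 were higher (2.8%) and 39 lower (0.432%). The D6 sums rest on 115 cells with 1966253 UMIs against 8529298 at D4, so counts of genes past a fixed fold are not comparable between the days. A gene that reached 10 CPM in TAGLN-high cells alone had to be higher there, which held for 56 of the 113 and 154 of the 253, and list counts and medians that include such genes are descriptions. Of the higher genes, 87 were shared between the days, which is 77.0% of the D4 genes and 34.4% of the D6 genes. Of the lower genes, 2 were shared (22.2% and 5.13%), C16orf89 and TMEM59L, the latter named here after its values were seen. The middle of the genes compared lay at log2 ratios of -0.04 and -0.01, with 5% of genes above 0.40 at D4 and above 0.72 at D6. Among genes with at least 20 CPM in the higher group on both days, ranked by the day nearer to 0, the 15 highest included ANXA1, NPPB, CER1, CAV1, LEFTY2, ANXA3, LEFTY1, PLK2, RHOB, CD44, ACTC1, VGF, PLAU and GLIPR1L1.

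**Figure D1:**
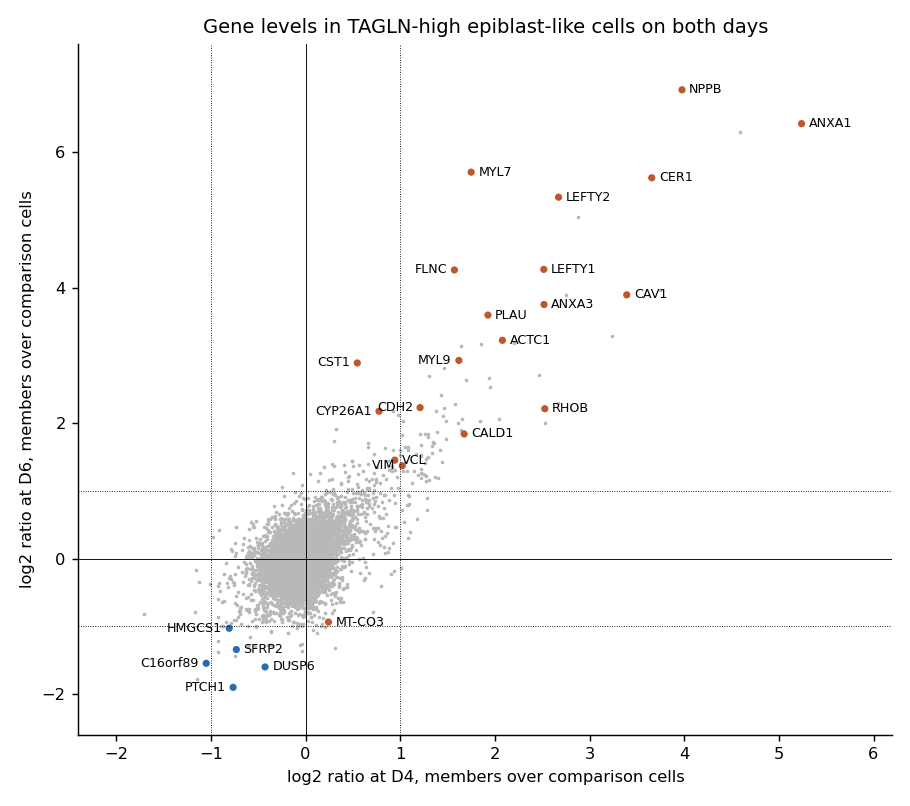
Each point is 1 gene with at least 10 CPM on both days, placed by its log2 ratio of TAGLN-high over comparison cells at D4 (x axis) and D6 (y axis), with dotted lines at 2-fold. Named genes are coloured red where the D4 ratio is above 0 and blue where it is below, and ANXA1, NPPB and CER1 sit far to the upper right while PTCH1 and C16orf89 sit at the lower left.

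The actin cytoskeleton and SRF target genes were higher as a group. Of 41 genes listed, 36 were measured above 10 CPM at D4, of which 7 were 2-fold higher and 0 lower, with a median log2 ratio of 0.55. At D6 the counts were 10 of 35 higher and 0 lower, with a median of 0.66. The higher genes included 2 at D4 and 1 at D6 that reached 10 CPM in TAGLN-high cells alone. The list as a whole took 21932 CPM in TAGLN-high and 15911 in comparison cells at D4, and 20403 and 12611 at D6. The list was written with TAGLN in mind and with earlier results of these data known, so its direction is a description.

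Among filament-stabilizing proteins, CALD1 (caldesmon) stood at 632 against 198 CPM at D4 and 591 against 165 at D6, log2 ratios of 1.68 (1.62 to 1.73) and 1.84 (1.75 to 1.93). TPM1 (tropomyosin) stood at 457 against 182 CPM and 474 against 149. CNN1 (calponin of smooth muscle) stood at 43.0 against 12.0 and 54.4 against 13.4. All of these were more than 2-fold higher on both days. MYL9, a regulatory light chain of smooth muscle and non-muscle myosin, differed by 1.62 at D4 and 2.93 at D6 on the log2 scale, whereas its partner heavy chains MYH9 (0.50 and 0.59) and MYH10 (-0.16 and -0.08) differed less. Muscle actins were low in comparison cells and higher in TAGLN-high cells. ACTA1 of skeletal muscle stood at 16.8 against 1.77 CPM at D4 and 10.2 against 1.06 at D6, and ACTC1 of heart at 54.8 against 13.0 and 117 against 12.5. The cytoplasmic actins ACTB and ACTG1, abundant in every cell, differed by 0.45 and 0.49 at D4 and 0.66 and 1.04 at D6. SRF itself did not share the direction on both days, at 0.29 (0.02 to 0.55) and -0.54 (-1.24 to 0.08).

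Since SRF binds the CArG box, promoters of 250 bases before the start were read for it from RefSeq (GRCh38.p14). Of the actin list, 37 of 41 genes had such a promoter and 8 of these held a box (21.6%), against 1.16% of 35116 promoters. The list is made of known SRF targets, so the excess was built in. Of the 15 highest genes 11 had a promoter and 1, ACTC1, held a box. Outside these lists, the promoter of IGFBP2 held a box. Other genes with a box, among them SRF with 2 boxes, are not shown. The windows of the actins ACTC1, ACTA1, ACTG2 and ACTG1 are shown with 30 bases around each box, which stands in capitals. They lie at chr15:34795619-34795688 on the minus strand (ACTC1), chr1:229434152-229434221 on the minus strand (ACTA1), chr2:73892868-73892974 on the plus strand (ACTG2, 2 boxes) and chr17:81512854-81512923 on the minus strand (ACTG1), all upstream of the start, and each is written in the direction of its gene.
ACTC1: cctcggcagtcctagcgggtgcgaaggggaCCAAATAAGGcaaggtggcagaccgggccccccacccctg
ACTA1: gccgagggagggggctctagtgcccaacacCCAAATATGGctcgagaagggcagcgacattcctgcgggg
ACTG2: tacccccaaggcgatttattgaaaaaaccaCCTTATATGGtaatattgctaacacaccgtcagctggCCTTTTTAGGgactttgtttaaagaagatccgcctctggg
ACTG1: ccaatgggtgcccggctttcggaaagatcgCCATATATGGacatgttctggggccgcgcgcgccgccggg
The muscle genes ACTC1, ACTA1 and ACTG2 were more than 2-fold higher at D4 and the cytoplasmic ACTG1 was 2-fold higher at D6 alone. A match is a run of letters and says nothing of binding in these cells. The other motifs were a TEAD letter run (GGAATG), AP-1 (TGANTCA) and FOXH1 (AATNNACA), searched on both strands. Of the 11 promoters, 0 held the first, 0 the second and 2 (VGF and CER1) the third, against 11.9%, 6.57% and 9.88% of all promoters.

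Levels of CALD1, ANXA1 and CAV1 followed the TAGLN count in graded fashion at D4, inside and outside the chosen cells. Some other genes were lower in the top bin than in the bin below it. At D4, CALD1 stood at 183 CPM in gate cells with 0 or 1 TAGLN UMIs, 279 at 5 to 7, 407 at 8 to 15 and 1411 at 32 or more. ANXA1 went from 1.34 over 14.1 and 38.5 to 289 CPM in the same bins, and CAV1 from 10.4 over 47.2 and 80.4 to 366. LEFTY1 stood at 506 CPM at 16 to 31 TAGLN UMIs and at 444 at 32 or more at D4. In these 2 bins LEFTY2 stood at 158 and 86.9, NODAL at 38.4 and 21.5 and NPPB at 54.2 and 43.0. CER1 stood at 96.7 and 143 there at D4, but at 283 and 80.5 at D6. Of the 159 CER1 UMIs at 16 to 31 TAGLN UMIs at D6, 137 were in 1 cell, so the higher value there rested on that cell. IGFBP2 stayed between 1062 and 1327 CPM over all 6 bins at D4, and at D6 it stood at 1343 in the lowest and 2172 in the highest. The median depth differed across the bins as well, from 13905 UMIs in the lowest to 21377 in the highest at D4. In the list of insulin-like growth factor genes, 0 of 9 measured passed 2-fold at D4 and 3 of 11 were higher at D6. At D6 the top bin held 26 cells, and ANXA1 was at 13.8 CPM in the 57 cells with 8 to 15 TAGLN UMIs and at 97.9 in the top bin.

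**Figure D2:**
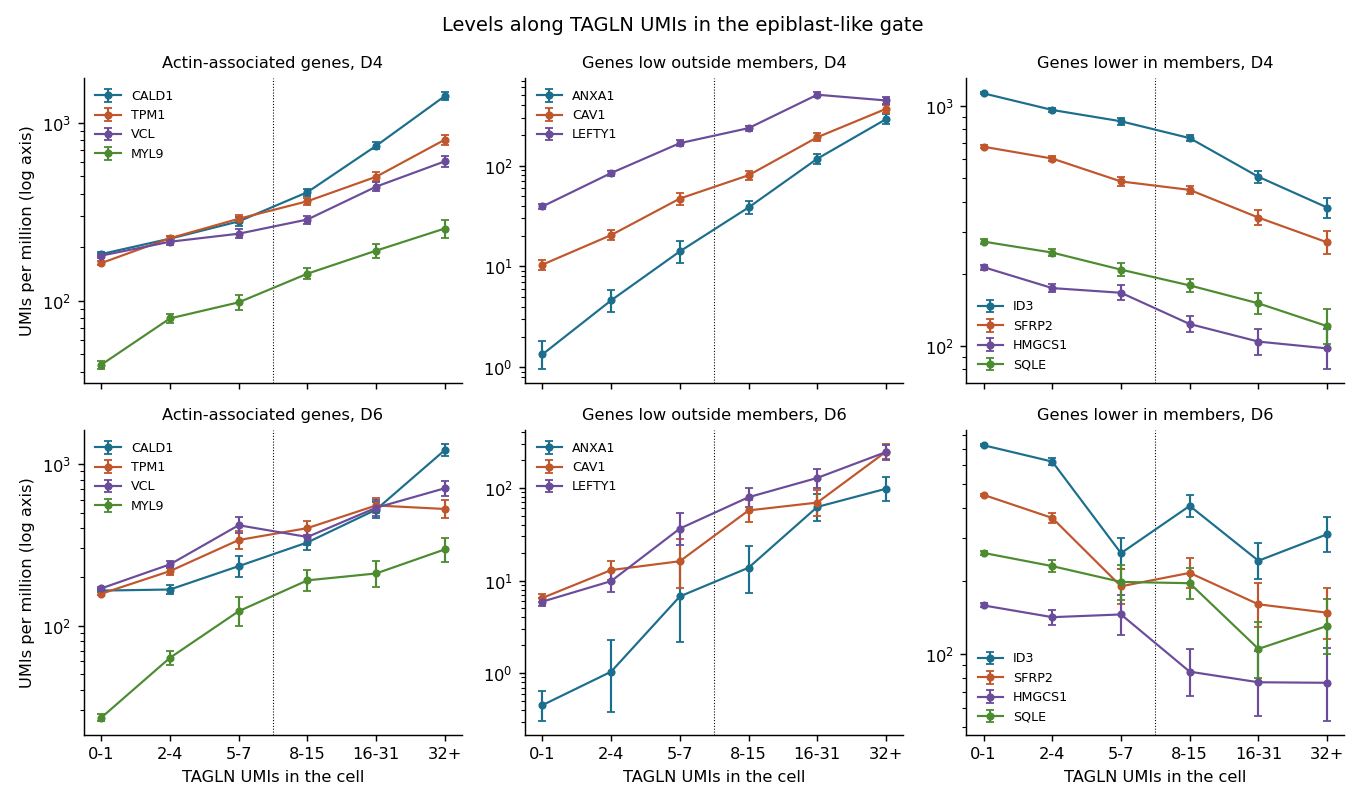
Levels in CPM (log axis, bars are 95% Poisson intervals of the summed counts) in gate cells binned by their TAGLN UMIs, with D4 above and D6 below and a dotted line at the limit that chose the cells. CALD1 climbs from 183 to 1411 CPM and ANXA1 from 1.34 to 289 at D4, while ID3 goes from 1132 to 378.

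Some adhesion genes were higher along with the cytoskeleton. Of 24 integrin and focal adhesion genes, 4 of 16 measured were 2-fold higher at D4 and 7 of 17 at D6, and 0 were 2-fold lower. Of those higher, 2 at D4 and 5 at D6 reached 10 CPM in TAGLN-high cells alone, so they could only be called higher. CAV1 (caveolin of membrane pits) stood at 149 against 14.2 CPM at D4 and 105 against 7.05 at D6, log2 ratios of 3.39 (3.25 to 3.54) and 3.89 (3.65 to 4.14). Its partner CAV2 differed by 2.66 and 2.26 from low levels, and CD44, the receptor for hyaluronan, by 2.21 and 3.18. The integrin subunits ITGAV (0.85 and 1.16) and ITGB5 (1.04 and 0.53), which pair as a vitronectin receptor, were higher on both days. ITGA6, a laminin receptor subunit, was at 55.6 against 80.9 CPM at D4 and 124 against 89.6 at D6, on opposite sides of 0.

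Annexins and S100 proteins, which bind membranes and each other in response to calcium, included 3 of 13 2-fold higher genes at D4 and 5 of 13 at D6. Within these higher genes, 1 at D4 and 2 at D6 reached 10 CPM in TAGLN-high cells alone. ANXA2 stood at 339 against 140.4 CPM and 369.7 against 133, and its binding partner S100A10 at 698 against 391 and 1219.6 against 394. ANXA1 and ANXA3 had larger log2 ratios, at 5.25 (4.94 to 5.56) and 2.52 (2.35 to 2.69) at D4 and 6.44 (5.86 to 7.05) and 3.75 (3.46 to 4.03) at D6. ANXA1 was found in 40.4% of TAGLN-high cells at D4 (interval 35.9 to 45.05%) and in 3.00% of comparison cells, and in 0.786% of TAGLN-low hypoblast-like cells, whose median depth was 12115 UMIs. With every cell thinned to 3430 UMIs the first 2 shares were 18.7% and 0.742%. At D6 it was found in 29.6% and 0.784%, so most TAGLN-high cells had no ANXA1 UMI.

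VIM (vimentin) and NES (nestin), intermediate filament proteins, were higher on both days, VIM with 2016 against 993 CPM at D4 and 1324 against 511 at D6, and NES with log2 ratios of 1.29 and 1.51. CDH2 (N-cadherin) differed by 1.21 (1.08 to 1.34) and 2.23 (1.99 to 2.46), whereas CDH1 (E-cadherin) stood at 35.8 against 44.8 CPM at D4 and 130.2 against 86.5 at D6. None of the 8 mesenchymal transition factors on the list, among them SNAI1, SNAI2 and TWIST1, reached 10 CPM on either day, and their sum was 12.5 against 10.1 CPM at D4 and 9.66 against 8.38 at D6. Among matrix genes, the fibrillar collagens COL1A1 (69.4 against 29.0 CPM at D4, 121 against 33.7 at D6) and COL5A2 (1.22 and 1.24 on the log2 scale) were 2-fold higher, while basement membrane chains such as COL4A2 (0.23 and 0.32) and LAMB1 (-0.14 and 0.56) were not. COL3A1, another fibrillar collagen, had 1 UMI in TAGLN-high cells at D4 and 0 at D6, and LUM, a fibroblast proteoglycan, had 0 on both days. At D4, 3 of 16 matrix genes measured were 2-fold higher, and 3 of 17 at D6.

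Some targets of NODAL were among the largest differences, and most other components of its pathway differed little. Of 21 genes listed, 5 of 17 measured were 2-fold higher at D4 and 4 of 18 at D6, 0 were 2-fold lower, and the medians were 0.12 and 0.07. Of those higher, 2 at D4 and all 4 at D6 reached 10 CPM in TAGLN-high cells alone, so they could only be called higher. The ligand NODAL stood at 22.0 against 3.81 CPM at D4 and 11.2 against 2.86 at D6, log2 ratios of 2.53 (2.22 to 2.85) and 1.97 (1.26 to 2.61). Its antagonist LEFTY1 stood at 339 against 59.3 and 132 against 6.82, and LEFTY2 at 127 against 19.9 and 58.5 against 1.44. CER1, a secreted antagonist of NODAL and BMP, stood at 62.8 against 4.97 and 101 against 2.04. On the log2 scale the receptor ACVR1B stood at -0.31 (-0.67 to 0.04) at D4 and -0.42 (-1.12 to 0.20) at D6, and the receptor ACVR2B at -0.19 (-0.33 to -0.06) at D4 and -0.23 (-0.50 to 0.02) at D6. The co-receptor TDGF1 stood at -0.05 (-0.13 to 0.03) at D4 and -0.19 (-0.37 to -0.02) at D6, and the nuclear partner FOXH1 at -0.16 (-0.28 to -0.04) at D4 and -0.14 (-0.39 to 0.11) at D6. The intervals of ACVR1B on both days, TDGF1 at D4 and ACVR2B and FOXH1 at D6 included 0. LEFTY1 was found in 59.8% of TAGLN-high and 15.6% of comparison cells at D4 (40.4% and 7.31% after thinning) and in 32.2% and 5.15% at D6.

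LEFTY1, LEFTY2 and CER1 also mark the anterior visceral endoderm, a hypoblast derivative. Of the 9 genes on that list, 3 of 5 measured were 2-fold higher at D4 and 4 of 7 at D6, and 0 were 2-fold lower. Of those higher, 1 at D4 and 4 at D6 reached 10 CPM in TAGLN-high cells alone. Besides these antagonists, the one 2-fold higher was LHX1, a homeodomain factor, at 10.2 against 1.96 CPM at D6. SHISA2 stood at 9.61 against 10.4 CPM at D4 and 12.2 against 10.9 at D6, and HHEX at 3.52 against 6.39 and 11.2 against 8.99. OTX2 had the lowest log2 ratio of the 5 measured at D4, at -0.52, whereas all 7 measured at D6 lay above 0. When cells that held any UMI of the hypoblast markers GATA4, GATA6, SOX17, FOXA2, PDGFRA or APOA2 were left out of both groups, a setting added after seeing the data, the log2 ratio of LEFTY1 was 2.88 at D4 and 4.01 at D6, that of LEFTY2 2.95 and 5.47, and that of CER1 4.58 and 5.72.

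PLAU, a secreted protease that activates plasminogen, stood at 21.9 against 5.77 CPM at D4 and 50.3 against 4.17 at D6. On the log2 scale, the ligand TGFB1 differed by 0.88 and 1.29 and the receptor TGFBR1 by -0.27 and -0.31. Of 13 TGF-beta genes, 5 were measured on each day, with medians of 0.79 and 1.12. Among YAP and TEAD targets, 2 of 13 measured were 2-fold higher at D4 and 4 of 16 at D6, with medians of 0.59 and 0.82. The matricellular proteins CCN1 (158 against 56.6 CPM at D4, 177 against 51.8 at D6) and CCN2 (1.02 and 0.71 on the log2 scale) were the 2 past 2-fold at D4, and CCN2 was not past it at D6.

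Early-response and stress genes were mixed, with 5 of 18 measured 2-fold higher on each day and 0 lower. JUN (1.30 and 1.80), ATF3 (1.24 and 1.23), IER3 (1.48 and 2.02), GADD45A (1.37 and 1.19) and GADD45B (1.34 and 1.54) were 2-fold higher on both days, while FOS (-0.13 and -0.62), EGR1 (-0.07 and 0.06) and the heat shock gene HSPA8 (0.19 and -0.16) were not. These genes also respond to enzymatic dissociation, whose part in the result was not tested. The kinase PLK2 and the small GTPase RHOB, both quickly induced genes, differed by 2.46 and 2.53 at D4 and 2.70 and 2.21 at D6. VGF, a secreted neuropeptide precursor, stood at 84.2 against 22.0 CPM and 58.0 against 9.12, and GLIPR1L1 at 47.4 against 13.1 and 20.3 against 2.28.

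Cholesterol and fatty acid synthesis genes were lower as a group. Each of the 16 genes measured, of 17 listed, was lower on both days, with medians of -0.58 and -0.73, and the intervals of 15 excluded 0 on each day, although 0 passed 2-fold at D4 and 1, HMGCS1, did at D6. Their sum was 1470.0 against 2209 CPM at D4 and 1229 against 1984 at D6. In the low-TAGLN cells of the gate with CYP26A1 and with TFAP2A, defined below, it was 2210 and 2143 CPM at D4. At D6 it was 1577 and 1607 in those cells, between the TAGLN-high and the comparison level. HMGCS1, an early enzyme of the pathway, stood at 115 against 201 CPM and 80.4 against 164, and SQLE, which makes squalene epoxide, at 163 against 264 and 155 against 266. SREBF2, the factor that drives these genes, differed by -0.41 and -0.70. Along the TAGLN bins at D4 their sum went from 2293 CPM in the lowest to 1191 in the highest.

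The BMP targets ID1 to ID4 were lower. ID3 stood at 625 against 1039.5 CPM at D4 and 338 against 635 at D6, log2 ratios of -0.73 (-0.77 to -0.69) and -0.91 (-1.02 to -0.80). ID1 differed by -0.57 at D4 and -0.13 at D6, ID2 by -0.56 and -0.30 and ID4 by -0.76 and -0.37. The ligands went the other way at D6, where BMP2 stood at 15.3 against 4.08 CPM, BMP7 at 35.1 against 13.6 and BMP4 at 13.7 against 6.98. BMP2 is also a hypoblast gene, and with cells holding a hypoblast marker UMI left out of both groups its log2 ratio was 1.81 in place of 1.90. Of 14 BMP genes, 5 were measured at D4 with 0 past 2-fold, and 8 at D6 with 3 higher and 0 lower. Genes that reached 10 CPM in TAGLN-high cells alone made up 2 of these 3. Among 18 WNT genes, 0 of 6 measured passed 2-fold at D4, and FZD5 (1.37) and FRZB (1.95) were higher and SFRP2 lower at D6. SFRP2, a secreted modulator of WNT signals, stood at 395 against 656 CPM at D4 and 184 against 467 at D6. PTCH1, the Hedgehog receptor and itself a target of that pathway, stood at 13.6 against 23.2 and 8.65 against 33.2.

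Several genes that FGF and ERK signalling induces were lower at D6, where 3 of 17 measured were 2-fold lower and 4 higher, against 0 and 2 of 17 at D4. The higher genes included 2 at D4 and 3 at D6 that reached 10 CPM in TAGLN-high cells alone. Similarly, 1 of the lower genes at D6 reached it in comparison cells alone. DUSP6, a phosphatase of ERK, stood at 21.4 against 65.4 CPM, a log2 ratio of -1.62 (-2.09 to -1.18), and at 72.8 against 98.0 at D4. ETV5 (-1.59) and SPRY4 (-1.30) were also 2-fold lower at D6, with -0.17 and -0.39 at D4. In the same list, the ligands FGF2 (0.46 and 1.22) and FGF17 (1.64 and 3.13) were higher, but FGF17 at D4 was at 0.64 with cells holding a hypoblast marker UMI left out of both groups and at -0.23 with them left out of the TAGLN-high cells alone. Another ERK phosphatase, DUSP4, was higher at D6, at 1.80. Cells of the gate with CYP26A1 and with TFAP2A, which had little TAGLN, had 30.5 and 17.3 CPM of DUSP6 at D6, on either side of the level in TAGLN-high cells. The genes with the smallest ratios on both days also included C16orf89, CD55 (a complement inhibitor), CCDC160, JAKMIP2, CACNG8, CXCL12 (a chemokine) and ASMTL, with log2 ratios between -1.05 and -0.79 at D4 and between -1.58 and -0.88 at D6. None of these 7 exceeded 55.3 CPM in comparison cells.

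**Figure D3:**
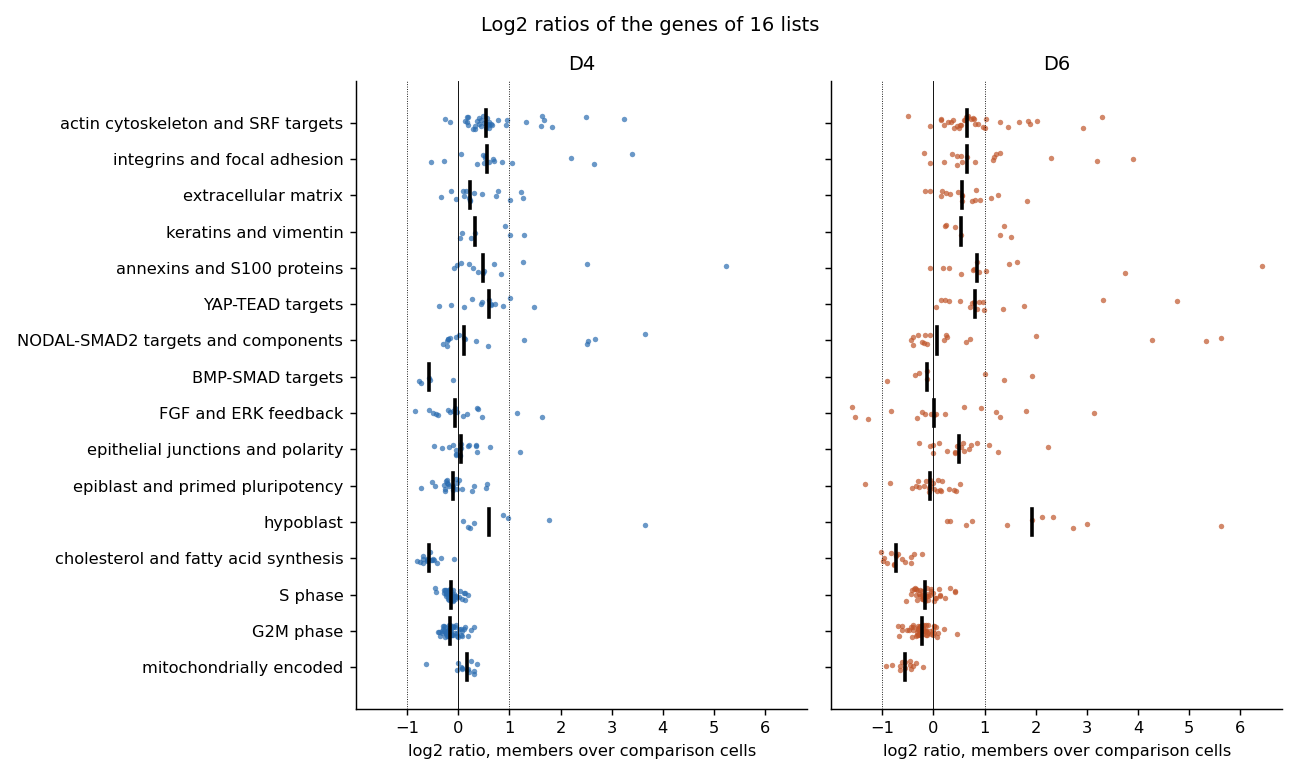
Each point is 1 gene of a list with at least 10 CPM, placed by its log2 ratio of TAGLN-high over comparison cells at D4 (left) or D6 (right), with a black bar at the list's median and dotted lines at 2-fold. The cholesterol genes lie left of 0 on both days with medians of -0.58 and -0.73, and the hypoblast list has a median of 1.92 at D6. Of the 11 hypoblast genes measured at D6, 5 reached 10 CPM in TAGLN-high cells alone.

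Genes of proliferation and of primed pluripotency lay slightly below 0. Of 41 S phase genes, 39 and 40 were measured, and their median was -0.14 at D4 and -0.17 at D6, and that of the G2M genes, 51 measured of 52, was -0.16 and -0.22, with 0 genes of either list past 2-fold on either day. The epiblast list had medians of -0.11 and -0.07 with 0 of 23 genes past 2-fold at D4 and 1, SFRP2, lower at D6. L1TD1 stood at 609 against 1101 CPM at D6. Glycolysis and hypoxia genes had medians of -0.05 and 0.13, and p53 targets of 0.19 and 0.24, where CDKN1A, a cell cycle inhibitor, stood at 12.1 against 4.73 CPM at D4.

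Marker lists of other lineages were summed in the same way. Of 16 primitive streak and mesoderm genes, 1 reached 10 CPM at D4 and 4 at D6, their sum was 38.0 against 26.4 CPM at D4 and 71.2 against 34.4 at D6, and TBXT was at 0 UMIs on both days. EOMES (13.2 against 3.47 CPM) and LHX1 were among those that reached 10 CPM at D6 in TAGLN-high cells alone, and with cells holding hypoblast marker UMIs left out of both groups the log2 ratio of EOMES was -2.72 and that of LHX1 1.12. TBXT in 0 of 465 cells at D4 has an exact interval of 0 to 0.790% for the share of cells with a UMI, which is no limit on cells expressing it. Of 8 definitive endoderm genes, 1 reached 10 CPM at D4, SOX17, and 5 at D6, with sums of 34.9 against 26.8 and 83.4 against 32.5 CPM. CXCR4 (18.8 against 2.91 CPM), GATA6 (16.8 against 2.57) and LHX1 reached 10 CPM at D6 in TAGLN-high cells alone, and GATA6 is also one of the hypoblast markers. Of 18 amnion genes, 2 and 4 reached 10 CPM, with GSTO1 the most abundant and TFAP2B and VTCN1 at 0 on both days, and the sum was 216 against 180.0 and 243 against 158. TFAP2C, a factor shared by the amnion, trophoblast and germ cell lists, stood at 15.01 against 6.07 CPM at D4 and 16.3 against 7.42 at D6, 2-fold higher on both days. IGFBP3, another amnion gene, stood at 14.2 against 5.84 at D6, and like TFAP2C and BMP4 it reached 10 CPM in TAGLN-high cells alone. Of 17 trophoblast genes, 10 and 12 were at 0, among them CGA, GCM1 and VGLL1. The neural list summed to 332 against 213 CPM at D4, of which NES alone gave 219, and ZIC1 was at 0. The germ cell list summed to 89.2 against 66.4, with PDPN the most abundant and NANOS3 at 0 at D6.

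Hypoblast markers were low against hypoblast-like cells but higher than in comparison cells, most of all at D6. Of 22 genes on the list, 8 were measured at D4, of which 2 were 2-fold higher, and 11 at D6, of which 7 were. Among these higher genes, 2 at D4 and 5 at D6 reached 10 CPM in TAGLN-high cells alone, so they could only be called higher. The sum was 1481 against 1210.1 CPM at D4 and 2586 against 1352 at D6, and 26754 in hypoblast-like cells at D6, with APOE the most abundant in TAGLN-high cells and TTR at 0 on both days. APOA1, a lipoprotein of the yolk sac, stood at 352 against 81.2 CPM at D6, APOA2 at 70.7 against 8.80 and the factor GATA6 at 16.8 against 2.57. Any UMI of GATA4, GATA6, SOX17, FOXA2, PDGFRA and APOA2 was found in 37.6% of TAGLN-high and 28.0% of comparison cells at D4 and in 40.9% and 34.9% at D6. At least 3 UMIs of them together were found in 13 of 115 TAGLN-high cells at D6 (11.3%) and in 1.80% of comparison cells, and in 6.24% and 1.85% at D4. With all such cells left out of both groups, 68 TAGLN-high and 2740 comparison cells remained at D6 and 290 and 1942 at D4. The hypoblast list, less those 6 genes, then had a median of 0.56 at D6 and 0.28 at D4. APOA1 stood at a log2 ratio of 0.13 at D6 in place of 2.12, while ANXA1 was at 6.73, CAV1 at 4.07, CALD1 at 2.01 and NPPB at 2.58.

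The number of cells behind a ratio differed from gene to gene, most of all at D6. NPPB, a natriuretic peptide of stretched heart muscle, stood at 258 against 2.12 CPM at D6, but 389 of its 507 UMIs (76.7%) came from 1 cell and 13 of 115 cells held any. Without that cell the log2 ratio was 4.84 in place of 6.92. In CER1, 137 of 198 UMIs were in 1 cell at D6, and the ratio without it was 3.95. In ACTC1 it was 109 of 230, with 2.32 left. For IGFBP5 24 of 32 UMIs were in 1 cell, and without it the ratio was -0.13. ACTC1 was found in 49 of 115 cells, CER1 in 22 and IGFBP5 in 7. ANXA1, CAV1, LEFTY1 and LEFTY2 were found in 34, 67, 37 and 31.

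The TAGLN-high cells were not uniform. Split by whether a cell held a UMI of ANXA1 at D4, the 188 positive cells had 241 CPM of CAV1 and the 277 others 84.9, and 2636 against 1583 of VIM and 97.6 against 49.6 of COL1A1. LEFTY1 was not higher in them, at 311 against 359 CPM, and NPPB stood at 20.8 against 36.3. CER1 and LEFTY2 stood at 81.4 against 49.8 and 148 against 112 CPM. The cells were also split by LEFTY1. The 278 LEFTY1-positive cells at D4 had 97.4 CPM of CER1 against 10.6 in the 187 others, 182 against 44.2 of LEFTY2 and 214 against 73.1 of CCN1. ANXA1 (117 against 57.2 CPM), CAV1 (193 against 82.2), CALD1 (782 against 406) and VCL (432 against 276) were higher in them as well. ID3 was lower in them, at 411 against 949.5, whereas COL1A1 (69.1 against 69.8) and TPM1 (483 against 419) were close. Depth was similar on both sides, with medians of 18269 and 17787 UMIs for ANXA1 and 17849 and 17988 for LEFTY1. TAGLN differed across both splits at D4, at 1242 against 781 CPM for ANXA1 and 1092 against 788 for LEFTY1, and its part in these differences was not tested. At D6 the ID3 pattern did not recur, with 411 against 299 CPM in 37 and 78 cells, and ANXA1 was level in LEFTY1-positive and other cells (47.3 against 47.3). CER1 stood at 75.3 against 114 CPM there, but the cell with 137 of its UMIs was LEFTY1-negative, and without that cell the values were 75.3 against 7.89. LEFTY1 stood at 71.2 against 159 CPM in the 34 ANXA1-positive and 81 other cells.

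TAGLN was also high in some hypoblast-like cells, which allows the same contrast outside the epiblast. In cells with at least 10 UMIs of FN1 and 0 of SOX2, those with at least 8 TAGLN UMIs (392 at D4, 223 at D6) were set against those with at most 4 (1272 and 1401). At D4, 68 of 8858 genes were 2-fold higher (0.768%) and 21 lower (0.237%), and at D6, 31 of 8864 were higher (0.35%) and 14 lower (0.158%). Of the genes higher in TAGLN-high epiblast-like cells, 21 were also higher in TAGLN-high hypoblast-like cells at D4, which is 18.6% of the epiblast-like and 30.9% of the hypoblast-like genes, and 16 at D6, 6.32% and 51.6%. ACTC1 stood at 46.0 against 5.46 CPM in TAGLN-high and TAGLN-low hypoblast-like cells at D4, MYL7, a myosin light chain of the atrium, at 386 against 66.6, and NPPB at 615 against 12.8. LEFTY1 stood at 267 against 45.1 and CER1 at 438 against 46.4. ANXA1 was nearly absent there, at 1.88 CPM in the TAGLN-high hypoblast-like cells at D4 and 1.74 at D6. CAV1 stood at 19.1 against 17.9 CPM at D4 and 23.8 against 17.3 at D6, log2 ratios of 0.09 (-0.23 to 0.40) and 0.45 (0.08 to 0.81).

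Within the epiblast-like gate, 2 sets of cells with at most 4 TAGLN UMIs were set beside the TAGLN-high cells. These were cells with at least 3 UMIs of CYP26A1 (310 at D4, 506 at D6), a retinoic acid-degrading enzyme, and cells with a UMI of TFAP2A (292 and 683). Of the CYP26A1 cells, 20 at D4 and 38 at D6 were also in the TFAP2A set, and the rest were also comparison cells. ANXA1 stood at 3.11 and 1.55 CPM in the CYP26A1 and TFAP2A cells at D4, CAV1 at 16.7 and 8.41 and CALD1 at 209.9 and 173, all below the TAGLN-high cells. LEFTY1 stood at 129 CPM in the CYP26A1 cells and 3.54 in the TFAP2A cells at D4, above and below the comparison level of 59.3. ID3 was higher in the TFAP2A cells than in TAGLN-high cells, at 1434 against 625 CPM at D4 and 1221 against 338 at D6. CYP26A1 itself was higher in TAGLN-high cells than in comparison cells at D6, at 319 against 70.6 CPM, with 110.4 against 64.5 at D4. CRABP2, which carries retinoic acid, differed by 0.56 and 1.06.

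**Figure D4:**
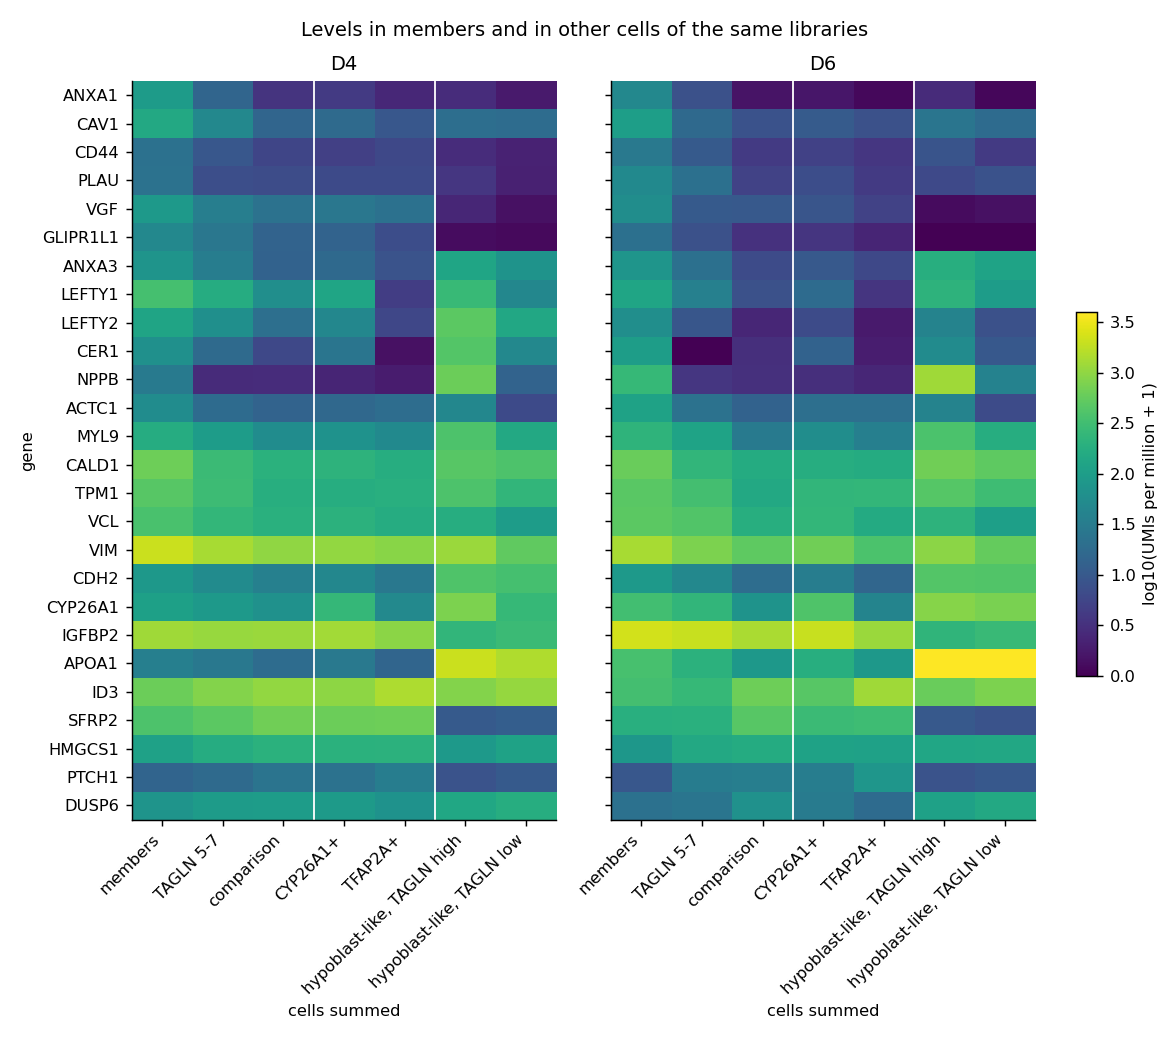
Levels of 26 genes as log10 of CPM plus 1 (colour) in 7 sets of cells at D4 (left) and D6 (right), with white lines between TAGLN-graded epiblast-like cells, other epiblast-like cells and hypoblast-like cells. ANXA1, VGF and GLIPR1L1 are brightest in the TAGLN-high epiblast-like cells (members), while NPPB, MYL9 and CER1 are also bright in TAGLN-high hypoblast-like cells.

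From D4 to D6 the levels inside the TAGLN-high cells moved in ways that partly went with the rest of the gate. LEFTY1 went from 339 to 132 CPM in TAGLN-high cells, and in comparison cells from 59.3 to 6.82, so the ratio widened while the level was lower. The same held for LEFTY2, which went from 127 to 58.5 CPM, and in comparison cells from 19.9 to 1.44. IGFBP2 was at 1233 and 2254 CPM, and in comparison cells at 1160.0 and 1399. After subtracting the shift of comparison cells, the genes that moved up most were MYL7, ANKRD1, NPPB, FLNC, APOA2, LEFTY2, FGF1 and CST1. For NPPB this place rested on the cell with 389 of its 507 UMIs at D6, without which its log2 ratio over comparison cells was 4.84 at D6, against 3.98 with all cells at D4. FLNC, a filamin of striated muscle, went from 31.2 to 92.1 CPM and was in 43.5% of cells at D6. MYL7 went from 11.02 to 63.1, ANKRD1 from 2.93 to 23.9 with 6 positive cells, and FGF1 from 3.05 to 21.4. CST1, a secreted cystatin, went from 69.4 to 331, with 7489 CPM in TAGLN-low hypoblast-like cells, and without TAGLN-high cells holding a hypoblast marker UMI its D6 over D4 log2 ratio turned from 2.25 to -0.54. Those that moved down most were AL117378.1, BCL7B, HHLA1, MT-CO3, DUSP6, IL17RD, AC064802.1 and AC027288.1, of which IL17RD, another inhibitor of FGF signalling, went from 34.5 to 14.7 CPM.

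Mitochondrially encoded transcripts differed between the days. At D4 they summed to 43094 CPM in TAGLN-high and 38283 in comparison cells, and at D6 to 18435 and 27101, with all 13 genes lower at D6. The median mitochondrial share per cell was 4.29% against 3.65% at D4 and 1.46% against 2.05% at D6. The CYP26A1 and TFAP2A cells of D6 summed to 18872 and 19389.6 CPM. The part of RNA quality in the other differences was not tested.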

How the data were processed

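The 2 single-cell libraries (Chromium 3' chemistry) were analysed from matrices of UMI counts per gene and cell barcode that the authors deposited. The authors made them with Cell Ranger 6.0.1 on hg38, and the submitters' notes also name R 4.0.3 and Seurat 4.0.1. Each matrix lists 36601 genes. The 7 methylation libraries of the series were not analysed here. Cells were kept, gated and grouped as stated above, and the members, gene lists and alternatives were chosen with earlier results of these data known. No doublet caller was run, and the upper UMI limit was the only guard against doublets.

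UMIs were summed over the cells of a group and expressed per 1e+06 UMIs (CPM). Log2 ratios carry exact conditional binomial intervals, CPM exact Poisson and shares exact Clopper-Pearson intervals, all at 95% and for counting error only. Calls, list medians, ratios without a cell and ratios under alternatives used sums with 0.5 added. A call needed 2-fold and 10 CPM in the higher group, without the 5 genes of the rule. Named genes were list genes, the 15 largest and 10 smallest ratios among genes at 20 CPM or more on both days with the same sign, and the 8 largest and 8 smallest shifts between days, and some of them are not reported here. With 1 library a day no test over samples exists. Python 3.11.15, numpy 2.4.6, pandas 2.3.3, scipy 1.17.1 and matplotlib 3.10.9 were used, and the ratio functions were tested on simulated data. Alternatives changed the cell filter, the limits of the rule, depth, the level measure, scaling and the filter on low values.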

Additional observations from a re-analysis of the deposited data

Results flagged for a closer look

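In these results the 2 days lay on opposite sides of 0, and the difference between the days was not tested, since each day is 1 library. ITGA6, a laminin receptor subunit, had a log2 ratio of TAGLN-high over comparison cells of -0.54 at D4 and 0.46 at D6. SFRP1, a secreted WNT modulator, had -0.73 at D4 and 0.46 at D6. The long transcript AL117378.1 had 0.71 at D4 and -0.81 at D6. The mitochondrially encoded genes had a median of 0.17 at D4 and -0.55 at D6.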

How the results depend on the processing

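No paired analysis was possible because each day is 1 library, so D4 and D6 share fewer than 2 replicate numbers. The share of the gate taken by TAGLN-high cells at D4 was 14.6% with no cell filter, 4.95% at a TAGLN limit of 16 UMIs, 19.6% at 5, 8.29% with TAGLN as a rate, 11.03% with FN1 at 0 and 7.80% without cells holding a hypoblast marker UMI. At D6 it was 1.15% at 16, 3.17% at 5, 1.78% as a rate and 1.35% without hypoblast marker UMIs. The 113 genes 2-fold higher at D4 became 197 at a limit of 16, 67 at 5, 39 at 50 CPM or more and 2740 with no filter on low values. The 253 at D6 became 404 at 16, 684 after thinning to 3430 UMIs, 71 at 50 CPM and 8814 with no filter, where genes with 0 UMIs in TAGLN-high cells and a few in the larger comparison group pass through the added 0.5. The 9 genes lower at D4 became 4 with no cell filter, 51 at 16, 2 at 5, 32 as a rate, 14 with FN1 at 0, 58 after thinning, 0 at 50 CPM and 1352 with no filter. The 39 at D6 became 150 at 16, 25 at 5, 88 as a rate, 68 with FN1 at 0, 93 without hypoblast marker UMIs, 349 after thinning, 4 at 50 CPM and 845 with no filter. Without TAGLN-high cells holding a hypoblast marker UMI, log2 ratios turned to -0.23 for FGF17 at D4 and, at D6, to -0.20 for APOA1, -0.51 for CST1, -2.93 for EOMES, -0.21 for KLF5 and -0.052 for the primitive streak and mesoderm median, and the D6 over D4 ratio of CST1 to -0.54. The neural ectoderm median at D4 turned to -0.024 after thinning and the germ cell median at D4 to -0.27 with no filter on low values. Of 3 alternatives chosen after seeing the data, leaving out the cell with most UMIs turned IGFBP5 at D6 to -0.13. Leaving cells with a hypoblast marker UMI out of both groups gave a share of 11.1% and 14 lower genes at D4 and 96 lower genes at D6, and turned EOMES at D6 to -2.72, while FGF17, APOA1, CST1 and KLF5 stood at 0.64, 0.13, 0.05 and 0.04 on those days. Both of these in turn, computed for LEFTY1, LEFTY2 and CER1, kept each past 2-fold on both days. The causes of these moves were not tested. Of 49 named and listed genes past 2-fold at D4, all kept their direction under the other alternatives that give a ratio per gene, as did the 93 at D6. With comparison cells weighted to the depths of TAGLN-high cells, 45 of the 49 and 90 of the 93 stayed past 2-fold, and after thinning 46 and 78 did. At a TAGLN limit of 5 UMIs, 40 of the 49 and 80 of the 93 stayed past it. With cells holding a hypoblast marker UMI left out of both groups, 47 of 49 at D4 and 77 of 91 at D6 did. Leaving them out of the TAGLN-high cells alone kept 47 of 49 and 74 of 91.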
